A study of Arabidopsis thaliana with 3 samples.

Results

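The genes described here are 9 syntaxins of Arabidopsis thaliana, out of 33602 transcripts in the deposited table, each standing for 1 locus. They were chosen by family name and locus identifier, from earlier knowledge of these data that included their sperm levels, so those levels are given as a description with no test. The identifiers, cut to the locus, matched 1 transcript each, and all 9 had a value above 0 in sperm and in pollen. Of all 33602 transcripts, 14480 were at 0 in sperm and 11699 in pollen.

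RNA was sequenced from sperm cells, the male gametes, which were sorted by fluorescence from wild-type Col-0 plants. Smart-seq2, a protocol for small amounts of RNA that primes on poly(A) tails and yields full-length cDNA, gave the libraries. The labels describe 3 sperm libraries and do not say whether they came from separate plants or sorts. The table gives the authors' mean for sperm in TPM, a length-corrected measure scaled to the same total in each column. It also gives the authors' mean for mature pollen, the whole grain in which a vegetative cell encloses a pair of sperm. Pollen libraries were made in the study with the same method, per the labels' protocols, and the pollen column was taken to be theirs. The labels used here cover the sperm libraries alone, so nothing more is given for pollen. Neither mean carries an SD or a count of reads, so depth is unknown and no difference below was tested against the spread between replicates.

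Syntaxins belong to the SNARE proteins, which pull a vesicle and its target membrane together until they fuse. A fusing complex combines a Qa-SNARE, a Qb- and a Qc-SNARE (or 1 protein that supplies both) with an R-SNARE of the VAMP kind, and SM proteins and the ATPase NSF assemble and recycle it. In plants the SYP1 family supplies the Qa-SNARE at the plasma membrane and at the cell plate of dividing cells, and the plant-specific SYP7 family supplies a Qc-SNARE. Pollen depends on this machinery for the secretion that extends the pollen tube.

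The RNA of these syntaxins in sperm was almost entirely that of SYP72. SYP72 (AT3G45280), a Qc-SNARE, was at 514.7 TPM in sperm and 199.4 TPM in pollen. It ranked 164 of 33602 in the sperm column and held 89.1% of the summed TPM of the 9 genes there. The sum was 577.4 TPM. In pollen the 9 genes summed to 680.2 TPM, and SYP72 held 29.3% of it. SYP131, a pollen plasma membrane syntaxin, held 49.3% of the pollen sum and 0.292% of the sperm sum. The leading gene differed between the columns. In such bulk means, fewer cells with a transcript and less RNA per cell cannot be told apart.

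**Figure D1:**
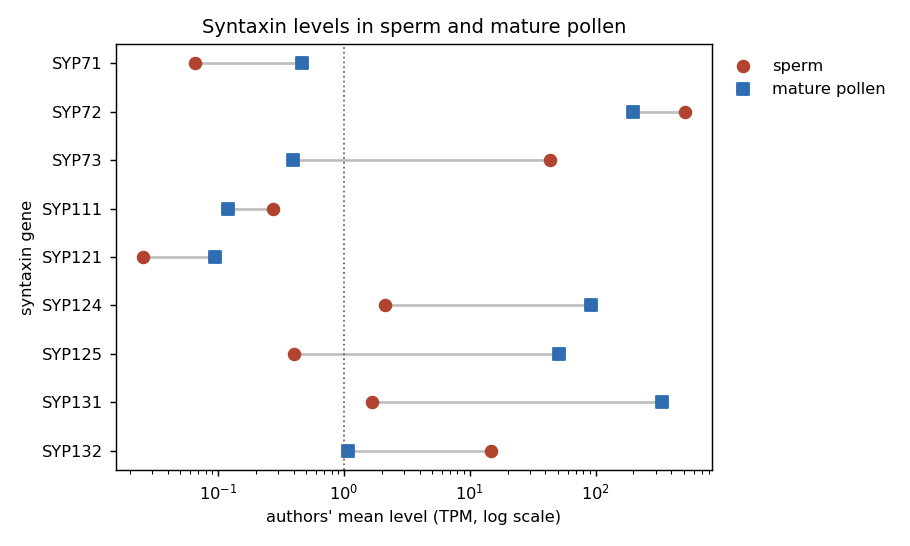
Level of each of the 9 syntaxin genes in sperm (circles) and mature pollen (squares), as the authors' mean in TPM on a log axis, with a grey line joining the 2 values of a gene and a dotted line at 1 TPM. SYP72 is the only one of the 9 above 100 TPM in both columns, while SYP124, SYP125 and SYP131 lie near 1 TPM in sperm and above 50 TPM in pollen.

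In sperm, 5 of the 9 genes were at or above 1 TPM, against 21.7% of all listed transcripts. In pollen 5 of 9 were too, against 17.8%. The sperm order was SYP72, SYP73, SYP132, SYP124, SYP131, SYP125, SYP111, SYP71 and SYP121. The pollen order was SYP131, SYP72, SYP124, SYP125, SYP132, SYP71, SYP73, SYP111 and SYP121. The spread between libraries is not known, so no difference between neighbours in either order was tested. SYP124 and SYP131 in sperm, at 2.13 and 1.69 TPM, lay closest to the threshold among the genes above it, and SYP125 at 0.405 TPM lay closest below it.

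Among the SYP7 genes, SYP73 (AT3G61450) was at 43.3 TPM in sperm and 0.395 TPM in pollen. SYP71 (AT3G09740), which works with the cytokinesis syntaxin KNOLLE and is used widely in the plant body, was at 0.066 TPM in sperm and 0.468 TPM in pollen. In sperm, SYP72 exceeded the sum of SYP71 and SYP73 by 3.54 on the log2 scale, with 1 TPM added to each side. In pollen the same log2 ratio was 6.75, where SYP71 and SYP73 together came to 0.863 TPM. Together the 3 SYP7 genes made up 96.6% of the 9-gene sum in sperm and 29.4% in pollen.

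Of the SYP1 genes, the 3 pollen syntaxins were the ones with high pollen values. SYP131 (AT3G03800) was at 335.4 TPM in pollen and 1.69 TPM in sperm. SYP124 (AT1G61290), which acts in pollen tube secretion, was at 91.9 TPM in pollen and 2.13 TPM in sperm. SYP125 (AT1G11250), its close relative, was at 51.3 TPM in pollen and 0.405 TPM in sperm. Their sum was 478.6 TPM in pollen, or 70.4% of the 9 genes, and 4.22 TPM in sperm, or 0.730%.

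The other SYP1 members had a different profile. SYP132 (AT5G08080), the broadly used plasma membrane syntaxin, was at 14.9 TPM in sperm and 1.07 TPM in pollen. Set against SYP124, SYP125 and SYP131 summed, SYP132 was higher by 1.61 on the log2 scale in sperm, and the same ratio was -7.85 in pollen. SYP111 (AT1G08560), which is KNOLLE, the syntaxin of the cell plate, was at 0.275 TPM in sperm and 0.120 TPM in pollen. SYP121 (AT3G11820), also called PEN1, known from defence secretion and guard cells, was at 0.025 TPM in sperm and 0.095 TPM in pollen. Both were under 1 TPM in both columns.

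**Figure D2:**
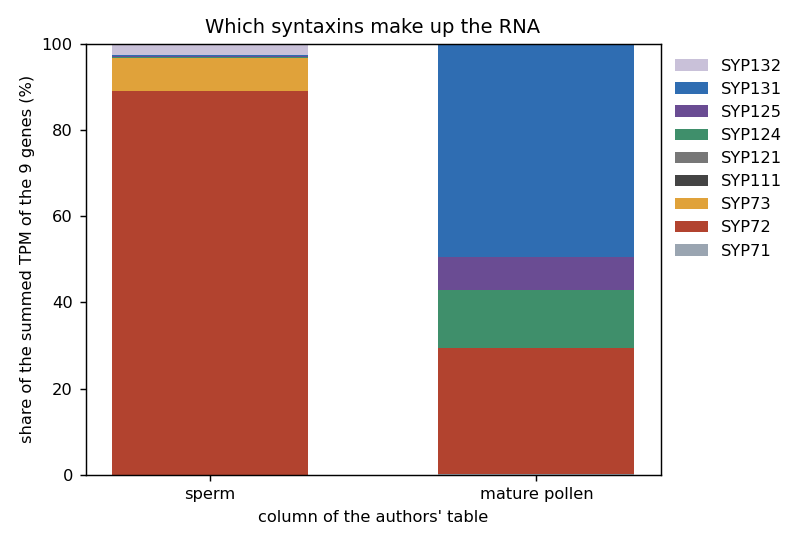
Stacked bars of the share, in percent, that each of the 9 genes has in their summed TPM in sperm and in mature pollen. SYP72 takes 89.1% in sperm and 29.3% in pollen, where SYP131 takes 49.3%; SYP71, SYP111 and SYP121 are too small to see.

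Set side by side, 3 of the 9 genes were at least 2-fold higher in sperm on the log2(TPM + 1) scale, against 15.3% of all listed transcripts. These were SYP73 with a log2 difference of 4.99, SYP132 with 2.94 and SYP72 with 1.36. Another 3 were at least 2-fold higher in pollen, against 9.12% of all listed transcripts. These were SYP131 with a log2 difference of -6.97, SYP125 with -5.22 and SYP124 with -4.89. Transcripts under 1 TPM in both columns cannot reach 2-fold on this scale, which lowers both shares over all listed transcripts. Of the 9754 transcripts at or above 1 TPM in sperm or pollen, 5145 were higher in sperm and 3066 in pollen. SYP71, SYP111 and SYP121, all under 1 TPM in each column, had values of -0.46, 0.19 and -0.10 on this scale, which understates differences of low genes. With 0.1 TPM added in place of 1, SYP71 was at -1.78, which made 4 genes at least 2-fold higher in pollen. With 0.1 TPM added, 7100 of all 33602 transcripts were higher in pollen.

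The difference of SYP72 was close to that of the typical shared transcript. Over the 3512 transcripts at or above 1 TPM in both columns, the median sperm to pollen ratio was 2.42, or 1.27 on the log2 scale. The ratio of SYP72 was 2.58. After the sperm column was divided by that median, SYP72 differed by 0.09 on the log2 scale, SYP73 by 3.76 and SYP132 by 1.79, while SYP124, SYP125 and SYP131 were still more than 2-fold higher in pollen. With this scaling 2 genes, not 3, were at least 2-fold higher in sperm. The 9 genes then summed to 238.8 in sperm, against 680.2 TPM in pollen. The divided sperm values no longer share the total of the pollen column, so they are not TPM and the 2 sums are not shares of equal totals. This scaling also moved the split over all transcripts from 5145 higher in sperm and 3066 higher in pollen to 3555 and 3523.

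All 10 sperm markers were at least 2-fold higher in sperm, against 15.3% of all listed transcripts. After division by the median ratio all 10 still were, beside 3555 of all 33602 transcripts. Their sperm to pollen ratios as deposited ran from 15.0 to 148, with a median of 94.7. The ratio of SYP73 was 109, inside that range, and that of SYP132 was 13.9, just under its lower end. The ratio of SYP72 was below every one of the 10. Summed, the sperm markers came to 35382 TPM in sperm and 327.9 TPM in pollen. The highest in sperm were PCR11 at 16145 TPM, DAZ3 at 11141 TPM, the sperm histone H3 gene HTR10 at 4750 TPM and GEX1 at 1670 TPM. The zinc finger genes DAZ1 at 52.8 TPM and DAZ2 at 39.4 TPM were the lowest.

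The 12 markers of the vegetative cell and pollen tube were all at or above 1 TPM in sperm, against 21.7% of all listed transcripts. None was at 0, while 14480 of all 33602 transcripts were. The highest were AGP6 at 127 TPM, AGP11 at 83.0 TPM, VGD1 at 78.9 TPM and RALF19 at 38.3 TPM, and the lowest BUPS1 at 2.38 TPM and ANX2 at 2.02 TPM. Their sum was 399.2 TPM in sperm and 43932 TPM in pollen. The sperm level was a median of 1.33% of the pollen level. It was 77.3% for CNGC18 and 11.1% for ANX1, which are named after their values were seen, and from 0.210% to 1.97% for the other 10. For SYP125 it was 0.790% and for SYP131 0.503%, both within the range of those 10, and for SYP124 it was 2.31%, just above it. The part of vegetative cell RNA in the sperm values of these 3 genes was not tested.

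**Figure D3:**
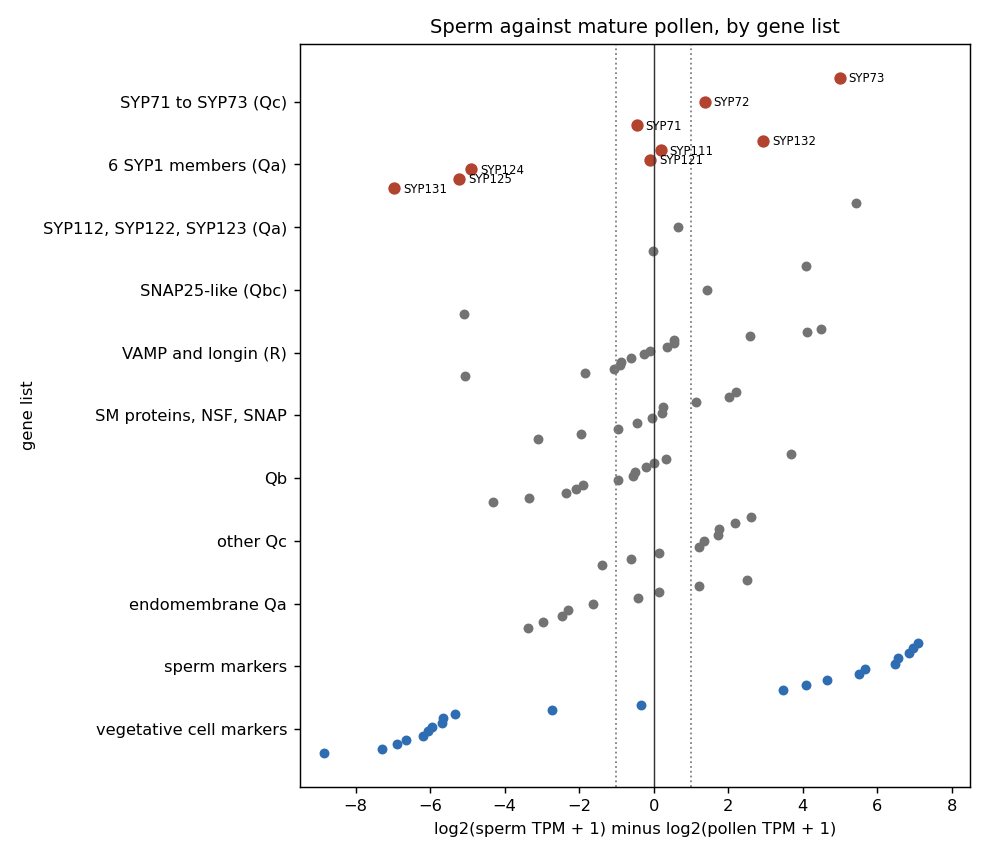
Difference between sperm and mature pollen, as log2(sperm TPM + 1) minus log2(pollen TPM + 1), for every gene of the lists, 1 point per gene, with the 9 syntaxins in red and named, marker genes in blue and dotted lines at 2-fold; the height within a list only spreads the points. SYP131 at -6.97 lies among the 10 vegetative cell markers at -8.85 to -5.32, SYP125 at -5.22 and SYP124 at -4.89 lie between those and the other markers of that list, ANX1 at -2.73 and CNGC18 at -0.33, SYP73 at 4.99 lies within that of the sperm markers, and SYP72 at 1.36 lies outside both.

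The digits of the means give a limited view of the libraries behind them. Values of 6 significant digits keep fewer decimals the larger they are, so a sum over libraries ends at the decimal place of its smallest library, unless that library is at 0 or ends in 0. The labels used here do not give the number of pollen libraries, so pollen sums are the mean times an assumed 2. For SYP72 the sum of the 3 sperm libraries, 1544 TPM, carried no digits of a library between 0 and 100 TPM. Nor did its pollen sum, 398.9 TPM. The pollen sum of SYP131, 670.8 TPM, likewise showed none. For SYP73 and SYP132 in sperm no digits of a library between 0 and 10 TPM were seen. The sperm sum of SYP71 was 0.197 TPM with no digits of a library between 0 and 0.1 TPM, as 1 library with all of it and the others at 0 would leave.

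The other SYP1 genes of the family were also measured. SYP112, the nearest relative of KNOLLE, was at 78.0 TPM in sperm and 0.830 TPM in pollen, a log2 difference of 5.43. Its sperm level was above the 0.275 TPM of KNOLLE and the 14.9 TPM of SYP132, the highest of the 6 SYP1 members. SYP122, the relative of SYP121, was at 0.705 TPM in sperm and 0.086 TPM in pollen, and SYP123, known from root hairs, at 0.014 and 0.027 TPM. Reads of such close relatives are divided by the estimation step, and how far these genes share reads was not examined.

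Of the 3 SNAP25-like genes, which supply both the Qb and Qc parts, all were at or above 1 TPM in sperm and 1 was in pollen. The shares of all listed transcripts at or above 1 TPM were 21.7% and 17.8%. At 5 TPM, 1 of 3 passed in sperm, with no share of all transcripts computed at that threshold. SNAP30 was at 80.2 TPM in pollen and 1.38 TPM in sperm. SNAP29 was at 18.6 TPM in sperm and 0.161 TPM in pollen, and SNAP33, a known partner of KNOLLE and SYP121, at 2.33 and 0.232 TPM.

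Of 14 R-SNARE genes, 7 were at or above 1 TPM in sperm and 8 in pollen, against 21.7% and 17.8% of all listed transcripts. Their medians were 2.11 and 1.42 TPM, beside 0.021 and 0.057 TPM over all transcripts. By the 2-fold rule 3 were higher in sperm and 3 in pollen, against 15.3% and 9.12% of all listed transcripts. After division by the median ratio 3 and 4 were, beside 3555 and 3523 of all 33602 transcripts. VAMP725 was highest in sperm at 86.5 TPM, with 2.90 TPM in pollen. VAMP714 followed at 35.4 TPM, with 1.11 TPM in pollen. YKT61 was at 29.6 and 22.97 TPM. VAMP722, an R-SNARE of cytokinesis and secretion, was at 18.4 TPM in sperm and 2.25 TPM in pollen. VAMP712 and VAMP724 were listed at 0 in sperm. VAMP711, a vacuolar R-SNARE named here after its value was seen, was at 150.1 TPM in pollen and 3.51 TPM in sperm.

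Of the 10 genes for SM proteins and the NSF machinery, 8 were at or above 1 TPM in sperm and 7 in pollen, against 21.7% and 17.8% of all listed transcripts. At 5 TPM, 3 of 10 passed in sperm, with no share of all transcripts computed at that threshold. KEULE, the SM protein that works with KNOLLE, was at 147.5 TPM in sperm and 31.2 TPM in pollen. NSF was at 20.3 TPM in sperm and 4.28 TPM in pollen. VPS33 was at 6.04 and 4.87 TPM, and GSNAP at 3.76 and 5.52 TPM. SLY1 at 0.503 TPM and ASNAP1, listed at 0, were the lowest in sperm. As deposited, 3 of the 10 were at least 2-fold higher in sperm and 2 in pollen, against 15.3% and 9.12% of all listed transcripts. After division of the sperm column by the median ratio, 0 were higher in sperm and 4 in pollen. Of all 33602 transcripts, 3555 and 3523 then were.

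Within all 59 SNARE genes of the lists, SYP72 alone made up 34.9% of the summed TPM in sperm and 14.4% in pollen. SYP131 made up 0.114% and 24.3%. Of the 59 genes, 18 were at least 2-fold higher in sperm, 18 in pollen and 23 in neither. The shares of all listed transcripts higher in sperm and in pollen were 15.3% and 9.12%. After division by the median ratio, 11 of the 59 were higher in sperm and 23 in pollen. Of all 33602 transcripts, 3555 and 3523 then were. By sperm level, the transcripts next above SYP72 were AT5G49152 at 517.9 TPM and MAPKKK19 (AT5G67080) at 520.7 TPM. Those next below were NUDT21 (AT1G73540) at 512.4 TPM and AT5G60250 at 508.5 TPM. In pollen these 4 were at 3.04, 7.09, 115.8 and 2.57 TPM, all below the 199.4 TPM of SYP72.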

How the data were processed

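The deposited table holds TPM values, which the authors scaled to a total of 1000000 in each column, as the file's unit and the column sums show. The build was TAIR10, and kallisto 0.43.1, STAR 2.5.2a, Trim Galore 0.4.1, bedtools and SAMtools were used, per the submitters' processing notes. The role of each tool, the transcript set and filters are not stated there. Isoforms other than the 1 listed per locus could lose reads or add them. Of values from 10 to 100 TPM, 91.8% in the sperm column became whole at 4 decimals (within 0.03 of a step) when multiplied by 3, against 30.5% unmultiplied, as means of 3 libraries would. In the pollen column, 92.9% did when multiplied by 2, against 45.3%. The pollen column was taken for this study's own from the series text and the extract protocol. The other 12 value columns name samples not described here and were not used.

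Levels, sums, shares and log2 differences with a pseudocount of 1 TPM were computed in Python 3.11.15 with pandas 2.3.3. The fold rule was run on constructed data with large known changes in high transcripts and no noise. That checks the arithmetic alone and says nothing about low genes or the spread between libraries. No test was possible on means. Thresholds were 1 TPM and 2-fold. Members and lists were chosen with earlier results of these data known, and the comparison with pollen was added after the file was seen. Genes named were all members, in each list the top 4 and bottom 2 by sperm level, and the neighbours of SYP72 in rank. VAMP711, NPSN11, CNGC18 and ANX1 were named after their values were seen. Of 91 list genes, 80 carry the name used here in a RefSeq table (TAIR10.1). HTR10, DMP9, RALF19, ASNAP1 and ASNAP2 stand there under another name, and VTI14, SFT11, SFT12, USE11, USE12 and BUPS1 have no symbol there. No coordinates were taken from it.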

Additional observations from a re-analysis of the deposited data

How the results depend on the processing

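The values are 2 columns of means, so no setting shows the spread between libraries, and no value has a counting error because TPM keeps no depth. At a threshold of 5 TPM, 3 of the 9 genes passed in sperm in place of 5, and the counts of 5 of 11 lists moved by over 1.5 times. The share of all listed transcripts at or above 5 TPM was not computed, so counts at 5 TPM have no background beside them. SYP72 made up 34.9% of all SNARE genes in place of 89.1% of the 9. Averaging on the log2 scale in place of summing, which lowers the side with several genes, gave log2 ratios of 6.23 for SYP72 to SYP71 and SYP73 and of 2.80 for SYP132 to the pollen syntaxins. Rescaling without organellar genes moved no result by over 1.5 times, but it multiplied sperm levels by only 1.0029. Rescaling without the 10 most abundant transcripts of sperm moved 1 list count. Rescaling without the 10 most abundant transcripts of either column moved, of the 9 sperm to pollen differences, that of SYP73, to 5.69. A pseudocount of 0.1 TPM moved 4 of the 9 differences: SYP71 to -1.78, SYP73 to 6.45, SYP125 to -6.67 and SYP132 to 3.68. It brought the genes at least 2-fold higher in pollen to 4, and gave 7921 higher in sperm and 7100 higher in pollen over all transcripts. At 4-fold, 2 genes were higher in sperm and 3 in pollen. The shares of all listed transcripts at 4-fold were not computed, so these counts have no background beside them. The settings for sperm against pollen were chosen after seeing the data. Leaving out each replicate was not run, because the table holds no value per library. No paired analysis was possible because the columns are means that carry no replicate numbers.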

Other observations

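Other SNAREs act at the inner membranes, the endoplasmic reticulum, Golgi, endosomes and vacuole. Of 9 endomembrane Qa-SNARE genes, 5 were at or above 1 TPM in sperm and 8 in pollen, against 21.7% and 17.8% of all listed transcripts. At 5 TPM, 2 of 9 passed in sperm, with no share of all transcripts computed at that threshold. By the 2-fold rule 2 were higher in sperm and 5 in pollen, against 15.3% and 9.12% of all listed transcripts. After division of the sperm column by the median sperm to pollen ratio, 1 and 5 were, beside 3555 and 3523 of all 33602 transcripts. SYP81, the syntaxin of the endoplasmic reticulum, was highest in sperm at 24.8 TPM, with 10.1 TPM in pollen. SYP42, of the trans-Golgi network, was at 22.2 and 3.07 TPM. SYP21 was at 2.44 TPM in sperm and 34.7 TPM in pollen, and SYP31, of the Golgi, at 1.96 and 1.66 TPM. SYP32 was at 0.048 TPM in sperm and SYP41 was listed at 0.

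Of 9 Qc-SNARE genes outside the SYP7 family, 8 were at or above 1 TPM in sperm and 8 in pollen, against 21.7% and 17.8% of all listed transcripts. As deposited, 6 were at least 2-fold higher in sperm and 1 in pollen, against 15.3% and 9.12% of all listed transcripts. After division by the median ratio 2 were higher in each, beside 3555 and 3523 of all 33602 transcripts. SYP51 was at 123 TPM in sperm and 47.4 TPM in pollen, USE12 at 67.1 and 19.1 TPM, SYP52 at 52.1 and 15.2 TPM and BET12 at 14.2 and 12.8 TPM. The lowest were SYP61 at 2.09 TPM and SFT11 at 0.395 TPM. Of 12 Qb-SNARE genes, 6 were at or above 1 TPM in sperm and 10 in pollen, against 21.7% and 17.8% of all listed transcripts. In sperm, 3 of the 12 passed 5 TPM, with no share of all transcripts computed at that threshold. As deposited, 1 was at least 2-fold higher in sperm and 5 in pollen, against the same 15.3% and 9.12%. After division by the median ratio 1 and 8 were, beside the same 3555 and 3523 of all 33602 transcripts. The sperm-higher gene as deposited was VTI11, a SNARE of transport to the vacuole, at 165.4 TPM in sperm and 11.9 TPM in pollen. GOS11 was at 52.5 and 77.9 TPM, MEMB11 at 49.9 and 39.3 TPM and GOS12 at 3.0 and 3.62 TPM. MEMB12 was at 0.068 TPM in sperm, and VTI14 was listed at 0 in both columns. NPSN11, a Qb-SNARE that works with KNOLLE and SYP71 and is named here after its value was seen, was at 0.385 TPM in sperm and 13.0 TPM in pollen.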
